A study of Mus musculus with 7 samples.

Results

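The 10 genes described here encode claudins and other tight junction proteins (Cldn1, Cldn2, Cldn3, Cldn4, Cldn7, Ocln, Tjp1, Tjp3, Cgn and F11r), picked by gene symbol from a table of 24421 genes, and all 10 had a row. Polyadenylated RNA was sequenced from 7 mouse tumours, 1 library for each separately named mouse, with titles that place treatment at week 4. In 4 mice anti-LAIR1, directed at an inhibitory leukocyte receptor for collagen, was combined with anti-PD-1, an antibody to an inhibitory T cell receptor. In 3 control mice anti-KLH, an antibody against keyhole limpet haemocyanin, was given with anti-PD-1, so all 7 mice had PD-1 blockade. The series text describes 2 models. The first is subcutaneous growth of 344SQ, a lung cancer line from K-rasLA1/+p53R172H∆g/+ mice, in male and female 129/Sv mice aged 6 to 8 weeks, where 10 mg/kg of anti-LAIR and 8 mg/kg of anti-PD-1 were given. The other is a KrasLSL-G12D/p53fl/fl mouse given adenovirus-cre into the trachea at 3 to 4 months of age and treated 2 months later. The labels do not say which model, strain, sex or age each tumour had. Names of the treated mice begin with WTSV and those of the controls with LOHM or KWM, so this prefix and the treatment cannot be told apart.

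A tight junction is a belt of strands that seals the gap between neighbouring epithelial cells near their apical side. Claudins are 4-pass membrane proteins that build the strands, some sealing them and others opening pores for ions. Occludin sits in the strands, JAM-A (F11r) adheres through immunoglobulin domains, and the ZO scaffolds (Tjp1, Tjp3) and cingulin (Cgn) tie the complex to the cytoskeleton. In carcinomas, loss of junction genes accompanies the epithelial-mesenchymal transition, whose regulators of the Snai and Zeb families bind E-boxes, and a subtype of human breast cancer is named for its low claudins 3, 4 and 7.

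The 10 genes fell into 6 with ample reads and 4, Cldn1, Cldn3, Cldn4 and Cldn7, with at most 29 reads in any library. The promoters of Cldn4, Cldn3 and Cldn2 are shown because they belong to neighbouring claudin genes that were nearly silent and to the claudin that was abundant. Each window holds 250 bases before and 50 after the RefSeq start site on GRCm38.p6, in the direction of the gene, with capitals for the E-box CAGGTG on either strand (CACCTG when read on the other). The Cldn4 window is chr5:134946885-134947184 on the minus strand, the Cldn3 window chr5:134985964-134986263 on the plus strand, and the Cldn2 window chrX:139800558-139800857 on the plus strand.
Cldn4: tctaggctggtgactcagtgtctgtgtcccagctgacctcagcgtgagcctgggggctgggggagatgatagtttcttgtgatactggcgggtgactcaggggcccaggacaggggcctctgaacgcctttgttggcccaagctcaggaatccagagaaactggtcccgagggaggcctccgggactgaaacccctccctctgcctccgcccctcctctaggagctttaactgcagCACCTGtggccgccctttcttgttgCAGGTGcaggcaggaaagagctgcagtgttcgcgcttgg
Cldn3: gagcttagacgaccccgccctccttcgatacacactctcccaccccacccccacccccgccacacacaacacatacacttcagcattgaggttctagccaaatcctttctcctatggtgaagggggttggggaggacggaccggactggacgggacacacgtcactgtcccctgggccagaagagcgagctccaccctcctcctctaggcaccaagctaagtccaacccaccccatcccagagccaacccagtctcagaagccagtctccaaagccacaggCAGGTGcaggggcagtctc
Cldn2: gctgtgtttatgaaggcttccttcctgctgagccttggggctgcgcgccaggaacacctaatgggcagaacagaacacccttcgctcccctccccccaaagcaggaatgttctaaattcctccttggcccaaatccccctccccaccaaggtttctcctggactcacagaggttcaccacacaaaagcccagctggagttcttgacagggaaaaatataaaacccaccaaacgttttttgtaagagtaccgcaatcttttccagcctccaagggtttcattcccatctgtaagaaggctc
The Cldn4 window held 2 E-boxes, with first bases at -14 and 11 relative to the start site, the Cldn3 window held 1 with its first base at 31, and the Cldn2 window held 0. Over all 32841 promoter windows of this length in the table, 20.2% held at least 1 and 2.88% at least 2. Of the 13 windows listed for the 10 genes, 8 held the motif, and they belong to 6 genes: Cldn3, Cldn4 and Cldn7, but also Ocln, Tjp3 and F11r, which had ample reads. The 2 Ocln windows overlap and share an E-box. GC content ran from 45.3% to 70.3% in the 13 windows, against a median of 52.7% over all windows, so the shares are not matched for base content. Cldn1, Cldn2, Tjp1 and Cgn had no match in their windows. The match therefore did not divide the genes as their levels did, and it is a description of letters and not of binding.

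Total counts ran from 11480651 to 15347403 in the anti-LAIR1 libraries and from 9879762 to 26255727 in the controls, and 3 reads were worth 0.119 to 0.305 CPM (the usual depth-scaled count, here after TMM scaling). The tissue labelled tumour carried lung and epithelial transcripts in all 7 libraries: Nkx2-1, the lung lineage factor, lay between 129 and 210 CPM with anti-LAIR1 and between 139 and 191 CPM in controls, and the surfactant gene Sftpb, of alveolar type II cells and some airway cells, between 1094 and 3103 CPM with anti-LAIR1 and between 1184 and 1536 CPM in controls. Sftpc, the surfactant gene particular to alveolar type II cells, and Scgb1a1, of club cells, were at or near 0. Control replicate 3 stood apart by skin genes. Its 11 keratinocyte markers summed to 151 CPM, against 15.5 to 26.9 CPM in the anti-LAIR1 libraries and 26.9 and 37.0 CPM in the other controls, with Krt5 at 40.3 CPM in it and at most 0.0863 CPM elsewhere. Skeletal muscle markers summed to 122, 11.6, 86.6 and 116 CPM in anti-LAIR1 replicates 1 to 4 and to 8.04 to 9.47 CPM in controls. The 7 adipocyte markers summed to 8.82, 94.2, 15.5 and 13.7 CPM in anti-LAIR1 replicates 1 to 4 and to 8.51 to 21.7 CPM in controls. In bulk tissue, fewer cells of a type and less RNA per cell cannot be told apart.

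Cldn2, Tjp1 and F11r were the most abundant of the 10 per length of transcript. On the scale of CPM per kilobase of merged exon, which allows levels of different genes to be compared, Cldn2 averaged 97.1 ± 8.82 with anti-LAIR1 and 88.6 ± 7.95 in controls (SD, n = 4 and n = 3, as throughout), Tjp1 74.9 ± 7.87 with anti-LAIR1 and 81.7 ± 3.93 in controls, and F11r 49.2 ± 2.73 with anti-LAIR1 and 49.2 ± 6.10 in controls. Cgn and Ocln followed with means over the 7 libraries of 16.8 and 11.6, and Tjp3 averaged 3.30 ± 0.946 with anti-LAIR1 and 2.20 ± 0.165 in controls. Across the 7 libraries the ranges of Cldn2 and Tjp1 overlapped, and so did those of Cgn and Ocln, whereas Tjp1 and F11r, F11r and Cgn, Ocln and Tjp3, and Tjp3 and Cldn3 did not overlap. The remaining 4 claudins averaged below 1 CPM per kilobase in each group, and their order among themselves lay within their spread.

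**Figure D1:**
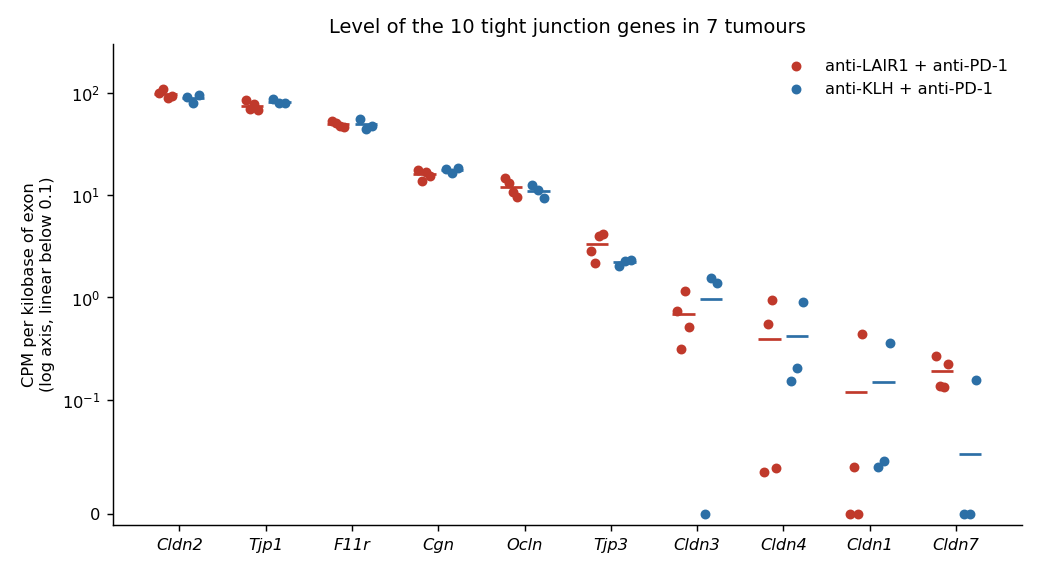
Level of each of the 10 genes in CPM per kilobase of exon (log axis, linear below 0.1). Points are libraries (red, 4 anti-LAIR1; blue, 3 anti-KLH) and bars are group means. The 6 genes on the left lie above 2 in every library and the 4 claudins on the right reach at most 1.54.

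Of the 10 genes, 8 passed the filter on low counts and were tested in the fit over 13545 genes. On the log2 scale of this fit Tjp3 had the largest difference among the 6 well-counted genes, and 0 of the 8 passed an adjusted p of 0.05 in edgeR's quasi-likelihood test. That count matches the background, since 0 genes of the whole table passed (0%), with 697 genes (5.15%) at an unadjusted p under 0.05, of which 1 was a member, Tjp3. DESeq2 called 54 of 13846 genes (0.39%) and 0 of the 10, but it gave Cldn7 no adjusted p. Complete separation of the groups was seen for 754 genes tested (5.57%) and for 0 of the 8. The median log2 fold change, anti-LAIR1 minus control, was 0.01 over the 8 tested members and -0.00285 over all genes tested, with 4 members above and 4 below 0, where 49.1% of all genes tested lay above 0. That median lay between -0.0328 and 0.109 over the alternatives, and so had no stable sign.

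**Figure D2:**
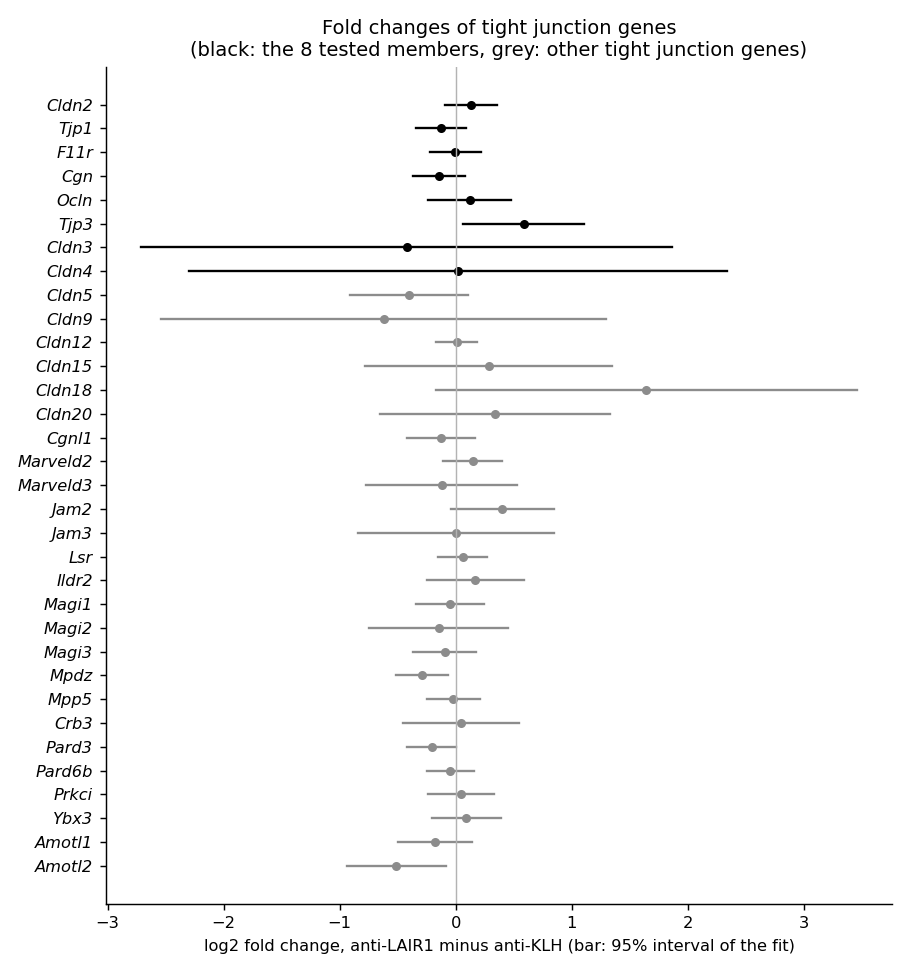
Log2 fold change, anti-LAIR1 minus anti-KLH, with the 95% interval of the edgeR fit. The 8 tested members are in black and tested genes of the other tight junction lists in grey, with 1 left out. Intervals of Cldn2, Tjp1, F11r and Cgn are narrow and include 0, while those of Cldn3 and Cldn4 run from below -2 to above 1.8.

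Cldn2, on chromosome X (139800828 to 139811386, GRCm38), encodes a pore-forming claudin that passes cations and water and marks leaky epithelia. It had 331, 360, 293 and 307 CPM in anti-LAIR1 replicates 1 to 4, against 304, 265 and 315 CPM in control replicates 1 to 3. The highest library was anti-LAIR1 replicate 2 and the lowest control replicate 2, and the groups overlapped. The log2 fold change was 0.13 (SE 0.10), with a 95% interval from -0.09 to 0.35 (edgeR adjusted p = 1.000). On the linear scale that interval runs from 0.939-fold to 1.28-fold, so a doubling or halving lies outside it.

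Among claudins Cldn2 took the greater part of the reads in every tumour. Of 31 claudin genes in the table, 14 had 0 reads in all 7 libraries and 2, Cldn2 and Cldn12, lay above 20 CPM in every one. Cldn2 made up 65.7% to 79.6% of all claudin reads with anti-LAIR1 and 72.7% to 77.8% in controls. Counted per kilobase these shares were 69.5% to 79.6% with anti-LAIR1 and 73.6% to 78.4% in controls. Cldn12, a widely expressed claudin, made up 14.1% to 17.8% of claudin reads with anti-LAIR1 and 16.4% to 18.8% in controls, and its level differed little between libraries, 69.6 ± 2.97 CPM in anti-LAIR1 tumours, against 69.1 ± 2.68 CPM in controls. The ratio of Cldn2 to Cldn12 CPM stayed between 3.87 and 5.24 over the 7 libraries. Cldn1, Cldn3, Cldn4 and Cldn7 together made up 0.345% to 0.868% with anti-LAIR1 and 0.121% to 1.33% in controls.

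**Figure D3:**
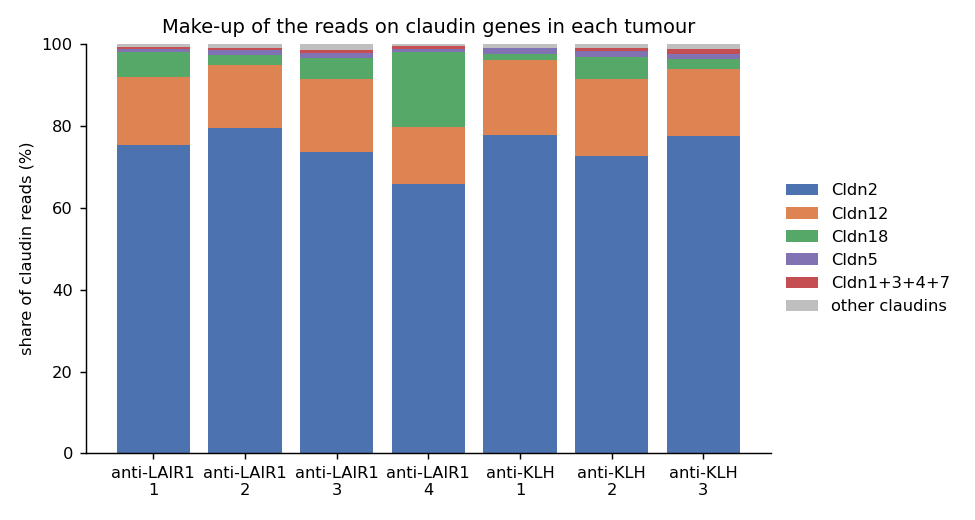
Share of all claudin reads (percent) held by Cldn2, Cldn12, Cldn18, Cldn5, the sum of Cldn1, Cldn3, Cldn4 and Cldn7, and the other claudins, for each library. Cldn2 holds from 65.7% to 79.6% of the reads, and the share of Cldn18 reaches 18.3% in anti-LAIR1 replicate 4.

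Cldn3 and Cldn4, neighbours on chromosome 5, encode claudins of many epithelia that serve as receptors of a Clostridium perfringens enterotoxin. Cldn3 (134986214 to 134987472) had 14, 6, 17 and 9 reads in the anti-LAIR1 libraries and 0, 26 and 17 in the controls. The control libraries held both the lowest and the highest count. Its log2 fold change was -0.42 with a 95% interval from -2.71 to 1.87 (edgeR adjusted p = 1.000), and the sign turned without control replicate 2 (0.21). An antisense gene, Wbscr25, overlaps the Cldn3 exon, and no source used here gives the strand setting of the counting, so these few reads are uncertain.

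Cldn4 (134945119 to 134946934) had 1, 15, 20 and 1 reads with anti-LAIR1 and 7, 5 and 16 in controls. Within each group the libraries split into high and low, and the groups overlapped throughout. The log2 fold change was 0.02 with a 95% interval from -2.30 to 2.34 (edgeR adjusted p = 1.000). It was 1.11 without control replicate 3, the library with the skin markers, and -0.48 without control replicate 1. Counting error alone gave a 95% interval for the ratio of read rates from 0.618 to 1.49 for Cldn3 and from 0.705 to 2.01 for Cldn4, narrower than the 0.153-fold to 3.65-fold and 0.203-fold to 5.07-fold of the fit, which also holds the spread between libraries.

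Cldn1 and Cldn7 did not pass the filter. Cldn1 (chromosome 16, 26356642 to 26371841), a sealing claudin needed for the skin barrier, had 0, 3, 0 and 29 reads with anti-LAIR1 and 5, 3 and 17 in controls. Its reads came mainly from anti-LAIR1 replicate 4, where the keratinocyte markers summed to 15.5 CPM, the lowest of the 7, and from control replicate 3, where they were highest. Cldn7 (chromosome 11, 69964779 to 69967885), a sealing claudin that binds EpCAM, had 8, 4, 3 and 6 reads with anti-LAIR1 and 0, 0 and 3 in controls. Every anti-LAIR1 library thus had at least as many Cldn7 reads as the highest control, and in CPM the groups overlapped. The sums over libraries were 21 reads with anti-LAIR1 and 3 in controls, a ratio of read rates of 6.27 with an exact 95% interval from 1.87 to 32.8 that covers counting error only. In the edgeR fit without a filter the Cldn7 difference was 2.20 on the log2 scale with a standard error of 1.18 (edgeR adjusted p = 0.918), so the difference did not pass once the spread between libraries was counted.

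**Figure D4:**
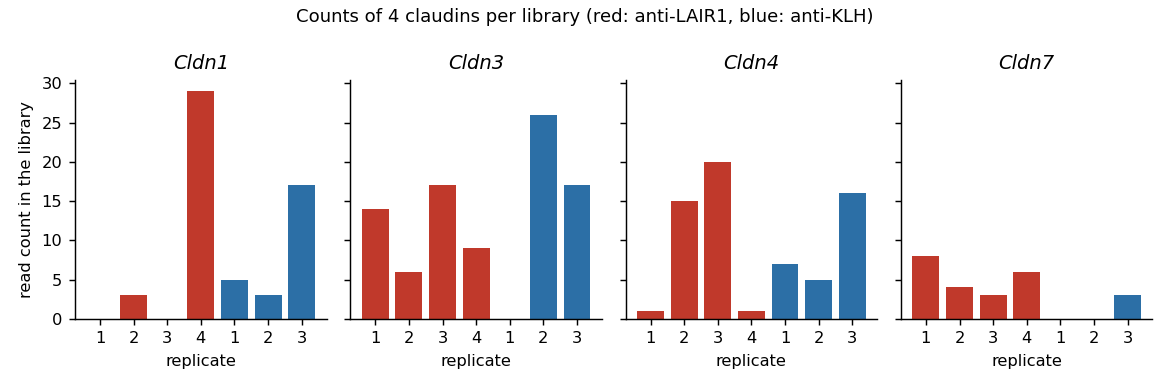
Reads of Cldn1, Cldn3, Cldn4 and Cldn7 in each library (red, anti-LAIR1 replicates 1 to 4; blue, anti-KLH replicates 1 to 3). Counts reach 29, and 29 Cldn1 reads in anti-LAIR1 replicate 4 stand apart from 0, 3 and 0 in the rest of its group.

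Occludin, a 4-pass strand protein that is not a claudin, is encoded by Ocln (chromosome 13, 100496507 to 100552718). It had 61.7, 55.3, 45.1 and 40.5 CPM with anti-LAIR1 and 52.5, 47.4 and 39.6 CPM in controls. The highest library was anti-LAIR1 replicate 1 and the lowest control replicate 3, and the ranges largely coincided. The log2 fold change was 0.12 (SE 0.16), with a 95% interval from -0.24 to 0.48 (edgeR adjusted p = 1.000). It was 0.013 without anti-LAIR1 replicate 1 and 0.21 without control replicate 1.

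F11r (chromosome 1, 171437535 to 171464603), which encodes JAM-A and is also expressed by endothelium, platelets and leukocytes, had 140, 134, 127 and 124 CPM with anti-LAIR1 and 149, 118 and 126 CPM in controls. Control replicates 1 and 2 were the highest and the lowest of the 7. Its log2 fold change of -0.00188 had an interval from -0.22 to 0.22 (edgeR adjusted p = 1.000), which is 0.858-fold to 1.16-fold. In the same libraries 10 leukocyte markers summed to 234 to 287 CPM with anti-LAIR1 and 167 to 207 CPM in controls, and 10 endothelial markers to 165 to 194 CPM with anti-LAIR1 and 128 to 156 CPM in controls. Their part in the F11r level was not tested.

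Tjp1 (chromosome 7, 65296165 to 65527781) encodes ZO-1, the scaffold that gathers claudins and links them to actin. It had 664, 546, 603 and 527 CPM with anti-LAIR1 and 674, 621 and 620 CPM in controls. Of the anti-LAIR1 libraries, 3 lay below every control and replicate 1 lay among them. The log2 fold change was -0.13 with an interval from -0.34 to 0.09 (edgeR adjusted p = 1.000), and it stayed below 0 in the 14 alternatives. Cgn (chromosome 3, 94760069 to 94786492), which encodes the cytoplasmic linker cingulin, had 107, 83.2, 102 and 93.6 CPM with anti-LAIR1 and 109, 99.3 and 112 CPM in controls. The lowest library was anti-LAIR1 replicate 2, as the highest was control replicate 3. The Cgn log2 fold change was -0.14 with an interval from -0.37 to 0.08 (edgeR adjusted p = 1.000), and it was -0.08 without anti-LAIR1 replicate 2. With the muscle level in the fit, which can hardly be separated from treatment, it was -0.33 (SE 0.13) and did not pass.

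Cgn kept a nearly fixed proportion to Tjp1, with 0.165 ± 0.0109 Cgn CPM for each Tjp1 CPM with anti-LAIR1 and 0.167 ± 0.0115 in controls. From lowest to highest library this ratio spanned 1.18-fold, and that of F11r to Tjp1 1.29-fold. Both genes varied little by themselves, Cgn 1.35-fold and Tjp1 1.28-fold, so a steady ratio is not particular to this pair. Over the 7 libraries the pair Tjp1 and Cgn had the highest Pearson correlation of log2 CPM among tested members (r = 0.81). The lowest among tested members was between Cldn3, with at most 26 reads in a library, and F11r (r = -0.82). Among the 6 well-counted genes the lowest was between Tjp1 and Tjp3 (r = -0.46). These values describe 7 points that share library and scaling. The 8 genes most like the average of the 6 well-counted members over the 7 libraries were Scnm1, B230118H07Rik, Tmem55a, Leng9, Srgn, Sec24c, 9430018G01Rik and Chn2 (r from 0.957 to 0.987). For Cldn3 they were Cnot1, Ddx20 and Usp6nl (r from 0.973 to 0.989), and for Cldn4 Dusp5, Atg9b and Ppard (r from 0.967 to 0.969). The Cldn3 and Cldn4 profiles rest on at most 26 and 20 reads in a library. All these genes were picked for the highest r, so the size of r is no evidence of shared regulation.

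Tjp3 (chromosome 10, 81273207 to 81291581) encodes ZO-3, a ZO scaffold restricted largely to epithelia. It had 10.6, 8.12, 14.8 and 15.5 CPM with anti-LAIR1 and 7.48, 8.38 and 8.65 CPM in controls. Anti-LAIR1 replicates 1, 3 and 4 lay above every control, and replicate 2 lay among the controls. The means were 12.3 ± 3.51 CPM in anti-LAIR1 tumours, against 8.17 ± 0.612 CPM in controls, a log2 fold change of 0.59 (SE 0.23), with a 95% interval from 0.07 to 1.11 (edgeR unadjusted p = 0.0312, adjusted p = 0.944). The difference thus did not pass the test over all genes. The same 3 anti-LAIR1 libraries carried the skeletal muscle transcripts, at 122, 86.6 and 116 summed CPM, while replicate 2 had 11.6 CPM. With the muscle level of each library in the fit, the Tjp3 log2 fold change was 0.07 (SE 0.27, edgeR adjusted p = 1.000, with 0.587 to 1.000 over the alternatives). Muscle markers were high only in anti-LAIR1 libraries, so that fit can hardly separate muscle from treatment. The part of muscle in the Tjp3 level was not tested. An exon of Apba3 on the opposite strand overlaps Tjp3, and Apba3 itself averaged 21.3 ± 2.67 CPM in anti-LAIR1 tumours, against 22.1 ± 4.55 CPM in controls.

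**Figure D5:**
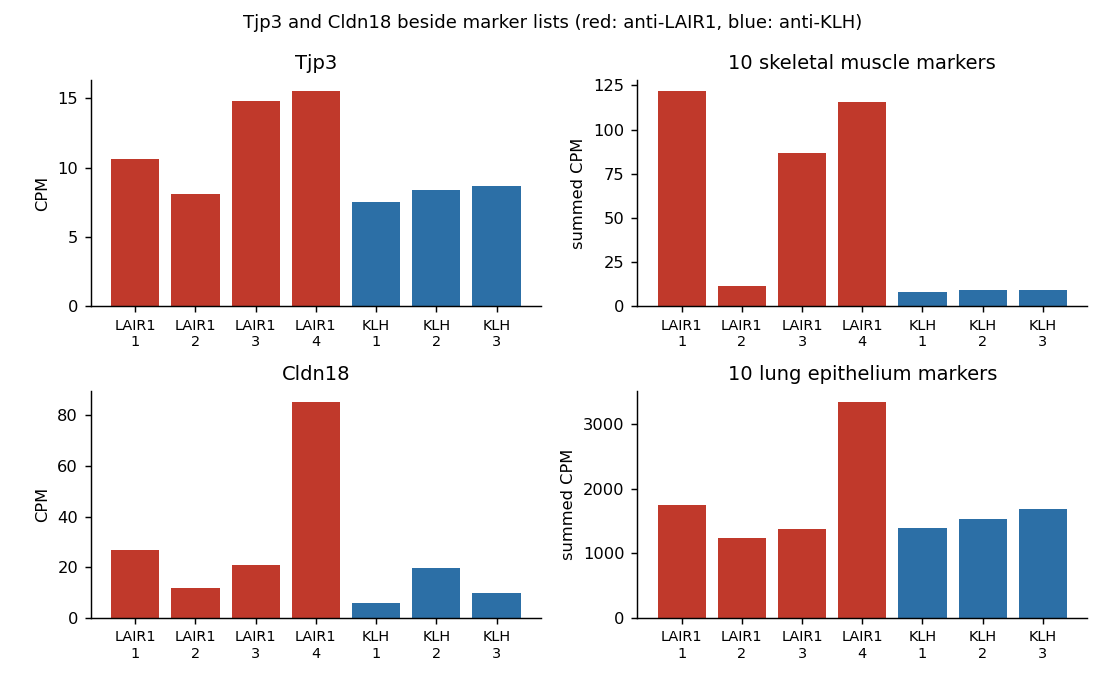
Tjp3 and Cldn18 (CPM) beside the summed CPM of 10 skeletal muscle markers and of 10 lung epithelium markers in each library (red, anti-LAIR1; blue, anti-KLH). Tjp3 is above the controls in anti-LAIR1 replicates 1, 3 and 4, which also hold the muscle markers. Cldn18 and the sum of the lung markers, which is mostly Sftpb, are highest in anti-LAIR1 replicate 4.

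Of the other claudins in the table, Cldn18, of lung alveoli and stomach, had the smallest p among those higher with anti-LAIR1, and its level differed widely between tumours. It had 26.7, 11.8, 20.7 and 85.4 CPM with anti-LAIR1 and 5.74, 19.7 and 9.67 CPM in controls. Anti-LAIR1 replicate 4 was over 3-fold above the next library, and the other values overlapped. The log2 fold change was 1.64 (SE 0.77, edgeR adjusted p = 0.980). With the muscle level in the fit, which can hardly be separated from treatment, it was 0.15 (SE 0.90). It was 0.76 without anti-LAIR1 replicate 4. In the same library Ager, of alveolar type I cells, was at 25.4 CPM, against 5.19 to 6.98 CPM in the other anti-LAIR1 libraries and 6.69 to 10.7 CPM in controls. Sftpb, a surfactant protein gene, was at 3103 CPM, against 1094 to 1582 CPM in the other anti-LAIR1 libraries and 1184 to 1536 CPM in controls. It made up most of the 3348 CPM to which the 10 lung epithelium markers summed in that library. Between the groups, 3 of the 6 lung markers tested lay above 0 and 3 below. Of the 10 tight junction genes, Cldn1 and Tjp3 were also highest in anti-LAIR1 replicate 4. The part of these lung transcripts in the Cldn18 level was not tested. Cldn5, the claudin of endothelium, averaged 4.04 ± 0.876 CPM in anti-LAIR1 tumours, against 5.34 ± 0.0503 CPM in controls. Its groups did not overlap, as for 2.51% of genes tested in that direction. It did not pass the test (log2 fold change -0.40, edgeR adjusted p = 0.980). With the muscle level in the fit the value was -0.10 (SE 0.31). Of the 10 endothelial markers, 9 had a fold change above 0, where 49.1% of all genes tested lay, and 0 passed. The part of endothelium in the Cldn5 level was not tested. Of the 6 other claudins tested, 0 passed in either direction, and 4 lay above and 2 below 0.

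Of 20 tested genes of the rest of the junction (scaffolds, polarity proteins and other junction membrane proteins), 0 passed in either direction by edgeR, with 0 higher and 2 lower at an unadjusted p under 0.05, where 3.51% and 1.63% of all genes lay. Their median log2 fold change was -0.04. Mpdz, a scaffold with many PDZ domains, had the smallest p. It averaged 28.2 ± 1.59 CPM in anti-LAIR1 tumours, against 34.4 ± 2.17 CPM in controls (log2 fold change -0.29, SE 0.10, edgeR adjusted p = 0.927). Its groups did not overlap, as for 1 of these 20 genes and 2.51% of all genes tested in that direction. Jam2, a junctional adhesion molecule of endothelium, had the smallest p among the higher ones, with 12.1 ± 2.46 CPM in anti-LAIR1 tumours, against 9.12 ± 1.56 CPM in controls (log2 fold change 0.40, edgeR adjusted p = 0.980). Amotl2, an angiomotin family gene named after its values were seen, was the other gene of the 2, with 70.5 ± 9.23 CPM in anti-LAIR1 tumours, against 100.2 ± 28.7 CPM in controls (edgeR adjusted p = 0.933).

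The near absence of Cldn3, Cldn4 and Cldn7 stood beside high levels of adherens junction and keratin genes. Cdh1, which encodes E-cadherin, averaged 2629 ± 482 CPM in anti-LAIR1 tumours, against 2586 ± 177 CPM in controls (log2 fold change 0.02, edgeR adjusted p = 1.000). Krt18, a simple epithelial keratin, averaged 795 ± 113 CPM in anti-LAIR1 tumours, against 760.5 ± 157 CPM in controls. Fn1, the mesenchymal matrix gene fibronectin, averaged 4434 ± 1195 CPM in anti-LAIR1 tumours, against 4811 ± 381 CPM in controls, and the repressor Zeb1 80.6 ± 11.7 CPM in anti-LAIR1 tumours, against 84.1 ± 2.99 CPM in controls. Of the 21 genes of the epithelial identity list, 13 passed the filter. Several of the rest were near 0 beside the claudins, and those named next were singled out after their values were seen. The part of Grhl2, a transcription factor known to activate Cldn4, in the Cldn4 level was not tested. Grhl2 had 6 reads in all anti-LAIR1 libraries and 17 in all controls, of which control replicate 3 gave 1.22 CPM. Summed in the same way, Rab25, a trafficking GTPase of epithelia, had 8 reads with anti-LAIR1 and 22 in controls, the epithelial transcription factor Ovol2 had 2 with anti-LAIR1 and 0 in controls, and Ap1m2, an epithelial adaptor subunit, had 3 with anti-LAIR1 and 2 in controls. The splicing regulator Esrp1 had 14 reads with anti-LAIR1, 12 of them in replicate 2, and 17 in controls, 15 of them in replicate 3, whereas its relative Esrp2 averaged 97.0 ± 7.23 CPM in anti-LAIR1 tumours, against 92.1 ± 8.34 CPM in controls.

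Neither these epithelial genes nor their mesenchymal counterparts passed the test. Of 13 adherens junction and desmosome genes tested 0 passed, 7 lying above and 6 below 0 with a median log2 fold change of 0.00205. Dsp, the desmosomal linker desmoplakin, averaged 516 ± 77.2 CPM in anti-LAIR1 tumours, against 434 ± 31.3 CPM in controls, and Ctnnd1, p120 catenin, 971 ± 129 CPM in anti-LAIR1 tumours, against 1072 ± 90.0 CPM in controls. Of 13 epithelial identity genes tested 0 passed, 10 above and 3 below 0 with a median of 0.07. Elf3, an epithelial ETS factor, averaged 23.1 ± 1.99 CPM in anti-LAIR1 tumours, against 19.0 ± 1.46 CPM in controls without overlap, as for 3.06% of genes tested in that direction (log2 fold change 0.29, edgeR adjusted p = 0.947), and Spint2, a serine protease inhibitor, 220.4 ± 12.2 CPM in anti-LAIR1 tumours, against 233 ± 21.3 CPM in controls. Of 9 mesenchymal regulators and markers 0 passed, 3 above and 6 below 0 with a median of -0.08. Snai1 averaged 7.46 ± 1.35 CPM in anti-LAIR1 tumours, against 5.99 ± 0.593 CPM in controls (edgeR adjusted p = 1.000). Cdh2, N-cadherin, averaged 67.3 ± 15.8 CPM in anti-LAIR1 tumours, against 86.1 ± 13.7 CPM in controls (edgeR adjusted p = 0.980).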

How the data were processed

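What the authors deposited is a single table of unnormalized counts, with gene symbols as rows, 7 mice as columns and 0 summary rows. The tools, per the submitters' processing notes, were featureCounts 2.0.1, edgeR 3.40.1, STAR 2.7.6 and Trim Galore, with the mm10 genome. No source used here gives the annotation, the strand setting or the treatment of multiply mapped reads, so counts of overlapping or antisense genes are uncertain.

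From these counts, genes were kept with filterByExpr (minimum count 10), scaled by TMM and tested in R 4.3.3 with the robust quasi-likelihood fit of edgeR 4.0.16 over 13545 genes, anti-LAIR1 minus control, with no covariate and Benjamini-Hochberg adjustment at 0.05. CPM uses TMM-scaled totals of the filtered table, and log2 CPM a prior count of 2. Intervals are 95% intervals of the fit. Alternatives were voom with sample weights in limma 3.58.1 and DESeq2 1.42.0. The scripts were tested on simulated counts in which only well-counted genes were changed and every gene had the same spread between libraries. Changes in genes with few reads, and libraries of unlike tissue content, were not covered by that test. Other alternatives were edgeR fits with library totals, DESeq2 size factors, no filter, a filter of 1 CPM in 3 libraries, or muscle level as a covariate. Further edgeR fits left out each library in turn. All alternatives reuse the same counts and are not independent. Muscle level is the mean log2 CPM of the skeletal muscle markers in a library. Exon lengths and coordinates came from GENCODE M21 (GRCm38, the assembly that mm10 names), which matched 95.6% of symbols, and promoters from RefSeq (GRCm38.p6). Library names show 7 different mice. Replicates were numbered in accession order. The members and lists were chosen with earlier results of these data known. From each of 5 lists the text names any gene that passed, or else the gene of smallest p in each direction and the gene of highest mean CPM, besides genes said to be chosen later. Likeness is the Pearson correlation of log2 CPM over the 7 libraries to the mean z score of the 6 tested members with a mean log2 CPM of at least 0, or to a single tested member that varied over 4-fold, among genes with a mean log2 CPM of at least 1. A gene that the rule for the 5 lists names is not reported here.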

Additional observations from a re-analysis of the deposited data

Results flagged for a closer look

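Cldn1 was the 1 gene of 25 examined (the 10 members and 15 named genes of other lists) in which a library of the anti-LAIR1 group lay far from the others. Anti-LAIR1 replicate 4 had 2.11 CPM, from 29 reads, against 0, 0.200 and 0 CPM in the other 3 libraries. Chance gives about 1 such library in 20 groups, and the 3 controls are too few for this check. Cldn18, Ager and Sftpb were also highest in that library, and skin keratinocyte markers were lowest there. The part of either in the Cldn1 reads was not tested.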

How the results depend on the processing

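The 8 tested members gave 0 calls in each of the 14 alternatives. The count over all genes was 0 in the edgeR fit and 54 with DESeq2, and lay between 0 and 3 when single libraries were left out, the 3 coming without anti-LAIR1 replicate 2. The cause was not tested. Without single libraries the members' median log2 fold change ran from -0.0108 to 0.0872. Cldn2, Ocln, Tjp1, Tjp3 and Cgn kept the sign of their fold change in the 14 alternatives, with Cldn2 between 0.06 and 0.28, Tjp1 between -0.22 and -0.08, and Tjp3 between 0.07 (muscle level in the fit) and 0.74 (without anti-LAIR1 replicate 2). F11r, Cldn3 and Cldn4 did not. Cldn3 ran from -1.44 (muscle level in the fit) to 0.21, and Cldn4, which passed the filter in 11 alternatives, from -0.48 to 1.11. No paired analysis was possible because the labels give no replicate numbers shared between groups. Cldn1, Cldn3, Cldn4 and Cldn7 have at most 29 reads in a library, and for Cldn3 and Cldn4 the intervals of the fit are wider than those of counting error alone.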
